A study of Mus musculus with 81 samples.

Results

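Transcript levels of RBPJ and of 7 coactivators of the Notch activator complex were followed through 5 RNA sequencing experiments in a mouse T cell hybridoma, a line labelled as mature T cells. The genes were taken by name as Rbpj, Maml1, Maml2, Maml3, Ep300, Crebbp, Kat2a and Kat2b, which are 8 of the 24391 genes in the count table, and all 8 were found there. Of these, 7 had enough counts to be tested in every experiment, and Maml2 in none.

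RBPJ is the DNA-binding protein of the Notch pathway. Without signalling it carries corepressors, and when a cleaved Notch receptor releases its intracellular domain (NICD), NICD and RBPJ together form a groove that binds a Mastermind-like protein (MAML1, MAML2 or MAML3). MAML in turn brings in the histone acetyltransferases p300 (Ep300) and CBP (Crebbp), while PCAF (Kat2b) and its paralog GCN5 (Kat2a), the catalytic subunits of SAGA-type complexes, have also been linked to NICD. In T cells this pathway is best known for setting early T lineage fate in the thymus.

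The depletion experiment compares Control_sgRbpj cells with sgRbpj_2-12 and sgRbpj_2-14, in which CRISPR was used to deplete RBPJ; each group has 2 libraries. The labels do not say whether 2-12 and 2-14 are single clones. The BioNICD1 experiment has 4 groups of 3 libraries: Control_sgRbpj or sgRbpj cells, each carrying the Biocontrol vector or BioNICD1_WT, a tagged wild-type NICD1. The sgRbpj cells of that experiment are not assigned to 2-12 or 2-14 in the labels. In the NICD1-ER experiment all groups carry NICD1 fused to ER, and 4-hydroxytamoxifen (4-OHT, 1 µM) was given for 4, 8 or 24 h, or ethanol for 24 h. In the KYOT2 experiment cells carry a GFP control, GFP-KYOT2_WT or GFP-KYOT2_WWAA, with 3 libraries each; KYOT2 is an RBPJ-binding corepressor made from Fhl1, and the WWAA mutant is defective in that binding. In the GSI experiment cells received the gamma-secretase inhibitor DAPT (20 µg/ml, 24 h), which blocks the release of NICD, or DMSO, with 2 libraries each. Whether replicates were grown separately is not stated in the labels, and p-values then measure only the spread between these samples, which may be technical.

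Library totals ran from 2377028 to 14244209 counts over the 41 libraries used. Levels are given in CPM, the counts scaled to library size with TMM factors (trimmed mean of M values) within each experiment, and 3 counts stand for 0.211 to 1.26 CPM depending on the library. Replicates 1 and 2 of the 4 h group and of the 8 h group differed by less than the sampling noise, so each pair was counted as 1 sample, which leaves 2 samples in each of these groups. The ethanol and 24 h 4-OHT groups have 2 samples because their labelled replicate 1 could not be matched to a column and was not used here. The GSI pair and the 24 h 4-OHT pair were also that close, but they had no further library of their group to be set against and were kept as 2 samples. T cell markers were present in every experiment (8 of 10 listed markers in the table, summed level 604 to 1848 CPM), and the B cell gene Ms4a1 was at 0 throughout. Another B cell marker, Cd22, was not, and averaged 138 CPM over the NICD1-ER libraries and 52.2 CPM over the BioNICD1 libraries. Among the BioNICD1 libraries, sgRbpj+Biocontrol replicate 3 and sgRbpj+BioNICD1_WT replicate 1 stood apart from the other libraries of their groups; values without both are given where they change a call. There the Notch target Dtx1 ranged from 223 to 279 CPM in Control_sgRbpj+BioNICD1_WT and was at most 2.41 CPM in the other 3 groups. Hey1 and Il2ra were also highest in Control_sgRbpj+BioNICD1_WT (71.6 to 73.7 and 450 to 502 CPM). Hes1 was not, at 16.9 to 17.5 CPM there, 23.1 to 28.3 CPM in sgRbpj+Biocontrol and 18.1 to 25.4 CPM in sgRbpj+BioNICD1_WT. In Control_sgRbpj+Biocontrol Hes1 was 1.01 to 3.46 CPM. Il2ra was 0.345 to 1.61 CPM in Control_sgRbpj+Biocontrol and 7.42 to 11.0 CPM in sgRbpj+Biocontrol.

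Changes are log2 fold changes with standard errors (SE), and adjusted p is from edgeR's quasi-likelihood test with Benjamini-Hochberg adjustment over all genes tested in that experiment. A gene is said to rise or fall where adjusted p is under 0.05. Of the 14 comparisons made, Rbpj was called in 10, Maml3 in 5, Ep300 and Kat2b in 3 each, Crebbp and Kat2a in 2 each and Maml1 in none. Over all genes tested, the share called ran from 0.0897% (mutant KYOT2 over GFP) to 42.0% (depletion with Biocontrol). The calls of Rbpj include those on depletion, where it is the edited gene, and many comparisons share groups.

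**Figure D1:**
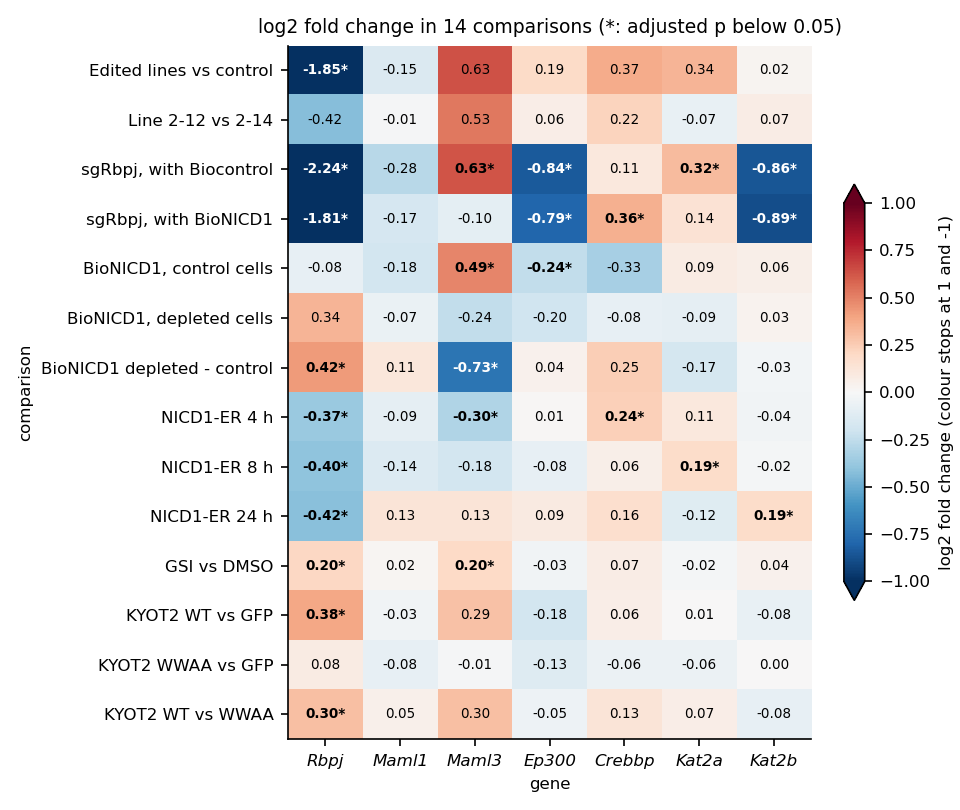
log2 fold change of the 7 tested genes (columns) in 14 comparisons (rows), red for higher and blue for lower, with an asterisk where adjusted p is below 0.05. Rbpj carries 10 asterisks and Maml1 none, and the only values beyond 0.7 in size outside the Rbpj column are those of Ep300 and Kat2b on depletion in the BioNICD1 experiment and of Maml3 in the difference of the BioNICD1 effect between depleted and control cells.

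Rbpj was called in all 5 experiments, but in the depletion and BioNICD1 experiments it is itself the edited gene. The stretch in front of one of its annotated starts is shown here. RBPJ is known to bind DNA with TGGGAA at its core, and that motif was searched on both strands, where it reads TTCCCA on the other strand. The 250 bases before the start of the first Rbpj window in RefSeq (GRCm38.p6, chr5:53590096-53590345, plus strand, within the annotated span of Rbpj) hold it at 2 places, in capitals below.
Rbpj, upstream stretch: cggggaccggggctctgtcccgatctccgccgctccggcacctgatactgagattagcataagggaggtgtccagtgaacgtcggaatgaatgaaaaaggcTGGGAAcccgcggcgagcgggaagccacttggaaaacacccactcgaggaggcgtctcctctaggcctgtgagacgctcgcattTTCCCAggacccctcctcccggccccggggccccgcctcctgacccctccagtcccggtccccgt
The first match starts at position -149 from the annotated start and the second, on the other strand, at position -65.

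The other matches are shown as 30-base stretches, so that the letters around the core can be compared between the coactivators (GRCm38.p6, each in the direction of its own gene, motif in capitals).
Maml3, position -185: gcaggtcggggcTTCCCAgcctggggagca
Kat2a, position -207: gggtgcctcttgTTCCCAagaggatagtaa
Kat2a, position -65: aaggccaaaggaTGGGAAgcggcaaaggaa
Maml2, position -145: acactcttgcacTTCCCAgggctcgggcag
These stretches lie at chr3:52105174-52105203 for Maml3, at chr11:100712657-100712686 and chr11:100712515-100712544 for Kat2a, and at chr9:13662303-13662332 for Maml2. Those of Maml3 and Maml2 are within the annotated spans of their genes. The Maml2 match is in its second window, at a start inside the gene, and its first window holds none. In all, 4 of the 8 genes hold TGGGAA in at least 1 of their RefSeq windows of 300 bases, and no match was found for Maml1, Ep300, Crebbp or Kat2b. The same motif is found for 28.3% of the 27025 genes with such windows and in 25.6% of the 32851 windows. The longer form GTGGGAA, each match of which is also a match of TGGGAA, is in no window of the 8 genes and in 6.38% of all windows. A match is a description of these letters only. The build of these windows differs from the mm9 build named for the deposited files, so no binding region was set beside them.

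Rbpj, the targeted gene, was the member with the largest fall. In the depletion experiment its level was 181.8 and 133.1 CPM in the 2 control libraries, 44.2 and 31.4 CPM in line 2-12, and 59.6 and 41.8 CPM in line 2-14. Both lines lay below both control libraries, and all 4 kept reads from the gene. The mean of the lines fell by 1.85 on the log2 scale (SE 0.21, adjusted p 0.0043, n = 4 against 2), to 27.8% of the control level. Rbpj was the only one of the 7 tested genes called in this comparison, in which 9.89% of all genes tested were called. With the replicate number as a block Maml3, Crebbp and Kat2a were called too, and 4260 of all 11566 genes tested. The counts are sums over the whole gene and do not show which exons the remaining reads came from. These are bulk libraries, in which fewer cells with the transcript and less transcript per cell cannot be told apart. Counts of 3 annotated Rbpj pseudogenes are not listed separately in the table, so reads from them may have been counted as Rbpj or dropped.

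The difference in Rbpj of line 2-12 from line 2-14 was -0.42 (95% interval -1.05 to 0.20, adjusted p 1), and 2-12 lay below 2-14 within replicate 1 and within replicate 2. With the replicate block the difference was again -0.42, with an adjusted p of 0.0819. Without the block none of the 7 genes was called between them, against 0.484% of all genes tested (56 genes, and 282 with the replicate block). The replicate number moved with the level in all 3 groups, replicate 1 being higher than replicate 2 each time.

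Across the BioNICD1 libraries, Rbpj was 90.1, 88.6 and 94.1 CPM in Control_sgRbpj+Biocontrol and 19.9, 19.3 and 18.7 CPM in sgRbpj+Biocontrol. With BioNICD1_WT it was 83.9, 84.6 and 88.8 CPM in control cells and 23.2, 22.6 and 27.5 CPM in sgRbpj cells. The control and sgRbpj groups were far apart with either vector. The fall was -2.24 with Biocontrol (SE 0.09, adjusted p 4.69e-09) and -1.81 with BioNICD1_WT (SE 0.09, adjusted p 1e-08). In control cells BioNICD1_WT gave a difference of -0.08 (95% interval -0.26 to 0.10, adjusted p 0.459). In sgRbpj cells the 3 libraries with BioNICD1_WT were all above the 3 with Biocontrol, by 0.34 (SE 0.09, adjusted p 0.0604), which did not pass the threshold. DESeq2 gave an adjusted p of 0.0399 for that difference, and edgeR one of 0.0452 without sgRbpj+BioNICD1_WT replicate 2.

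The effect of BioNICD1_WT on Rbpj differed between depleted and control cells by 0.42 (SE 0.12, adjusted p 0.0295). Here 2 of the 7 genes were called, Rbpj and Maml3, against 22.5% of all genes tested. The Rbpj difference rested on the libraries used: with no filter on low counts its adjusted p was 0.0751, and it passed in 4 of 12 fits that left out 1 library each. The 8 libraries without which it was lost were all 3 of Control_sgRbpj+Biocontrol, replicates 1 and 2 of Control_sgRbpj+BioNICD1_WT, replicates 1 and 2 of sgRbpj+Biocontrol and replicate 3 of sgRbpj+BioNICD1_WT (adjusted p 0.0514 to 0.0699, difference 0.33 to 0.45). Counts assigned to Notch1, whose sequence BioNICD1 shares, were 166 to 174 CPM in Control_sgRbpj+BioNICD1_WT and 836 to 981 CPM in sgRbpj+BioNICD1_WT, so the groups that carry the construct differed in these counts too. The part of this in the result was not tested.

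Rbpj fell with 4-OHT in NICD1-ER cells and rose with gamma-secretase inhibition, in experiments whose controls differed in Notch target levels. Dtx1 was 85.6 to 88.5 CPM with ethanol and at most 0.159 CPM with DMSO. Hes1 was 43.7 to 44.6 CPM with ethanol and at most 0.638 CPM with DMSO. With GSI itself Dtx1 was 0.399 and 1.12 CPM, and Hes1 was 0 and 0.373 CPM. Hes1, Hey1, Dtx1 and Il2ra were too low to be tested in the GSI experiment, and Notch1 was not called (0.57, adjusted p 0.249). A fall of Notch targets with GSI was therefore not shown. In NICD1-ER cells Rbpj was 213.2 and 206.5 CPM with ethanol, 159.8 and 166.2 CPM after 4 h of 4-OHT, 157.9 and 159.0 CPM after 8 h and 157.0 and 156.2 CPM after 24 h. Every 4-OHT sample was below both ethanol samples, and the 3 times lay close together. Rbpj fell by 0.37 at 4 h (SE 0.05, adjusted p 6.74e-05), by 0.40 at 8 h (SE 0.05, adjusted p 1.36e-05) and by 0.42 at 24 h (SE 0.05, adjusted p 9.91e-06), which left 77.4%, 75.5% and 74.7% of the ethanol level. These 3 falls were called in every alternative fit. All 3 times share the same ethanol samples, taken at 24 h, so the 4 h and 8 h values also differ from their control in time of treatment. No cells without NICD1-ER received 4-OHT, so 4-OHT itself and NICD1-ER activation cannot be told apart. With 24 h of GSI, Rbpj was 211.5 and 206.3 CPM, against 176.7 and 185.3 CPM with DMSO, and both GSI samples were above both DMSO samples. The rise was 0.20 (SE 0.05, adjusted p 0.00132, 20.7% of all genes tested called); DESeq2 gave an adjusted p of 0.167.

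Wild-type KYOT2 also went with more Rbpj transcript. Rbpj was 140.1, 139.5 and 142.2 CPM with the GFP control, 180.8, 178.7 and 190.6 CPM with GFP-KYOT2_WT and 143.6, 139.8 and 164.0 CPM with GFP-KYOT2_WWAA. All 3 libraries with GFP-KYOT2_WT lay above the other 6, and replicate 3 of the mutant was the highest of those. The rise with GFP-KYOT2_WT over GFP was 0.38 (SE 0.06, adjusted p 0.00452), and Rbpj was the only one of the 7 genes called, against 0.888% of all genes tested. The mutant differed from GFP by 0.08 (95% interval -0.04 to 0.21, adjusted p 0.746); none of the 7 genes was called there and 0.0897% of all genes were. Wild type and mutant differed by 0.30 (SE 0.06, adjusted p 0.0194; 1 of the 7 genes called, 1.87% of all genes). That last call was lost when only the 2 groups compared were fitted (adjusted p 0.0705) and without any 1 of 5 libraries: each of the 3 with GFP-KYOT2_WT and mutant replicates 1 and 2 (adjusted p 0.0644 to 0.101). In the count table Fhl1, the gene that encodes KYOT2, was higher than with GFP in both KYOT2 groups, and higher with the wild type than with the mutant by 0.67 (SE 0.08, adjusted p 3.93e-04). The part of that difference in the result was not tested.

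Ordered by mean level within each experiment, Rbpj was lowest in sgRbpj_2-12 (37.8 ± 9.02 CPM, SD, n = 2), then in sgRbpj_2-14 (50.7 ± 12.6), whose ranges overlapped, and highest in Control_sgRbpj (157 ± 34.4). In the BioNICD1 experiment the order was sgRbpj+Biocontrol (19.3 ± 0.607 CPM, n = 3), sgRbpj+BioNICD1_WT (24.4 ± 2.62), Control_sgRbpj+BioNICD1_WT (85.8 ± 2.63) and Control_sgRbpj+Biocontrol (90.9 ± 2.86). Neighbours that shared an Rbpj status were not called different, and the step between depleted and control cells was the only wide one.

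**Figure D2:**
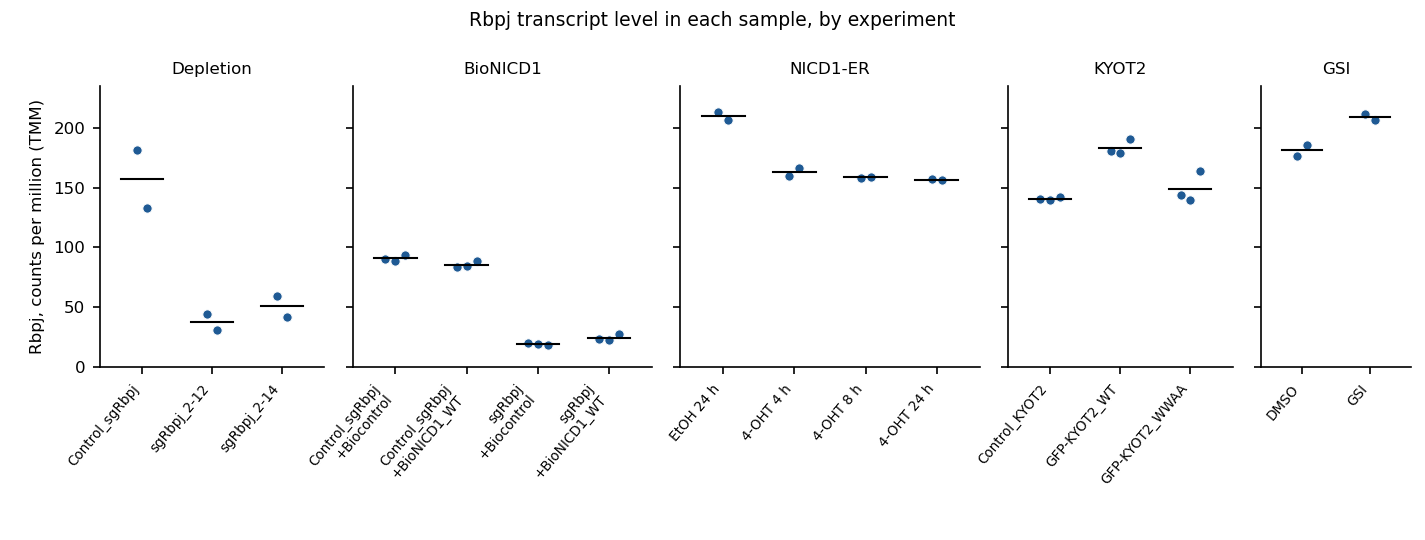
Rbpj level in TMM-scaled CPM (vertical axis, from 0) in every sample, 1 panel per experiment and 1 column per group; points are samples, with summed libraries as 1 point, and lines are group means. Depleted groups lie at 18.7 to 59.6 CPM, ethanol lies above all 4-OHT samples, and GFP-KYOT2_WT and GSI lie above their controls; scaling was done within a panel, so heights are to be read within it.

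Among the Mastermind-like genes, whose products join NICD and RBPJ to the acetyltransferases, Maml3 passed the test in 5 of 14 comparisons. In the depletion experiment Maml3 was 23.8 and 38.6 CPM in control, 62.6 and 57.0 CPM in line 2-12 and 39.0 and 43.8 CPM in line 2-14. All 4 depleted libraries were above both control libraries, although by little in line 2-14. The difference was 0.63 (SE 0.20, adjusted p 0.0968), short of the threshold. With the replicate number as a block it was 0.61 with an adjusted p of 0.0167, although whether that number pairs these libraries is not known. That fit called 4 of the 7 genes (Rbpj, Maml3, Crebbp and Kat2a) and 4260 of all 11566 genes tested, against 1144 without the block. With no filter on low counts the adjusted p was 0.00919. Without Control_sgRbpj replicate 2 the difference was 1.06 (adjusted p 0.0259), and without Control_sgRbpj replicate 1 it was 0.37 (adjusted p 0.248).

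With the BioNICD1 vectors Maml3 was 39.2, 36.7 and 36.6 CPM in Control_sgRbpj+Biocontrol, 50.5, 55.6 and 51.5 CPM in Control_sgRbpj+BioNICD1_WT, 58.2, 61.8 and 54.0 CPM in sgRbpj+Biocontrol and 48.5, 51.9 and 46.5 CPM in sgRbpj+BioNICD1_WT. The control group without BioNICD1_WT, Control_sgRbpj+Biocontrol, was the lowest, and the other 3 were all above it. Depletion with Biocontrol raised Maml3 by 0.63 (SE 0.09, adjusted p 9.28e-05), and BioNICD1_WT in control cells raised it by 0.49 (SE 0.09, adjusted p 8.48e-04). These comparisons share the Control_sgRbpj+Biocontrol libraries. In depleted cells BioNICD1_WT gave -0.24 (SE 0.08, adjusted p 0.129), with all 3 libraries below those with Biocontrol. The effect of BioNICD1_WT differed between depleted and control cells by -0.73 (SE 0.12, adjusted p 0.00107), and this was called in all 17 alternative fits. Here too the groups that carry the construct differed in counts assigned to Notch1 (836 to 981 CPM in depleted and 166 to 174 CPM in control cells). The part of this in the Maml3 difference was not tested. With BioNICD1_WT present, depletion changed Maml3 by -0.10 (95% interval -0.28 to 0.08, adjusted p 0.363).

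Maml3 moved less in the other experiments. In NICD1-ER cells it was 61.9 and 71.5 CPM with ethanol, 53.5 and 55.8 CPM at 4 h, 59.8 and 57.8 CPM at 8 h and 75.6 and 71.0 CPM at 24 h. It fell by 0.30 at 4 h (SE 0.08, adjusted p 0.0246), while the 8 h and 24 h differences were -0.18 and 0.13 (adjusted p 0.142 and 0.385), and at 24 h the samples overlapped those with ethanol. The 4 h call was lost with DESeq2 (adjusted p 0.480), without the summed 4 h replicates 1 and 2 (-0.27, adjusted p 0.176) and without ethanol replicate 3 (-0.19, adjusted p 0.329). At 4 h, 3 of the 7 genes were called, against 6.25% of all genes tested. With GSI, Maml3 was 75.2 and 75.8 CPM, against 63.9 and 67.5 CPM with DMSO, a rise of 0.20 (SE 0.06, adjusted p 0.0371). That call was lost without any 1 of the 4 GSI and DMSO libraries (0.16 to 0.24, adjusted p 0.0621 to 0.183), and DESeq2 gave an adjusted p of 0.726 for it. At the lower level of the KYOT2 experiment, 9.84 to 15.0 CPM, the 3 libraries with GFP-KYOT2_WT were above all 3 with GFP, by 0.29 (SE 0.12, adjusted p 0.306), which was not called.

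Maml1, the first described of the Mastermind-like genes, was called in none of the comparisons. It ran from 86.3 to 115.8 CPM over the 6 libraries of the depletion experiment, from 71.5 to 86.6 CPM over the 8 NICD1-ER samples, from 42.6 to 50.3 CPM over the 9 KYOT2 libraries and from 93.2 to 101.2 CPM over the 4 GSI and DMSO libraries. Over the 12 BioNICD1 libraries it ran from 30.3 to 50.8 CPM, and the 3 libraries of sgRbpj+Biocontrol were below the 3 of Control_sgRbpj+Biocontrol, a difference of -0.28 (SE 0.12, adjusted p 0.0712). Without the 2 depleted libraries that stood apart, this became -0.33 with an adjusted p of 0.0227, and without Control_sgRbpj+Biocontrol replicate 2 it was -0.36 with one of 0.0487. The counts of Maml3 per count of Maml1, a ratio within a library, went from 0.882 ± 0.141 (SD, n = 3) in Control_sgRbpj+Biocontrol to 1.38 ± 0.0665 with BioNICD1_WT and to 1.64 ± 0.215 in sgRbpj+Biocontrol, and it was 1.45 ± 0.0956 in sgRbpj+BioNICD1_WT.

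Maml2 was close to undetected outside 1 experiment. In the depletion, NICD1-ER, KYOT2 and GSI experiments no sample held more than 2 counts. Among the BioNICD1 libraries those of Control_sgRbpj+Biocontrol held 0, 0 and 1 counts, those of Control_sgRbpj+BioNICD1_WT 12, 6 and 9, those of sgRbpj+Biocontrol 7, 7 and 8, and those of sgRbpj+BioNICD1_WT 7, 6 and 9. As for Maml3, Control_sgRbpj+Biocontrol was the lowest group. Against its 1 count, the ratio of summed counts per library size was 21.9 for Control_sgRbpj+BioNICD1_WT (exact 95% counting interval 3.61 to 897), 18.5 for sgRbpj+Biocontrol (2.99 to 764) and 19.9 for sgRbpj+BioNICD1_WT (3.22 to 823). These intervals cover counting error only, and no test across replicates was made. Phxr4, a gene in the table, overlaps Maml2 in RefSeq, and the sources used here do not say whether counting used strand. A further gene that overlaps Maml2, and 1 each that overlap Maml3, Ep300 and Kat2b, are not listed there under their RefSeq symbols. Whether reads from them were counted with Maml2, Maml3, Ep300 or Kat2b is not known. Rbpjl, the paralog of Rbpj, held at most 1 count in any sample.

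The acetyltransferases p300 and CBP, close paralogs that MAML recruits, did not move together. Ep300 was 186.9, 184.9 and 180.7 CPM in Control_sgRbpj+Biocontrol and 103.3, 104.4 and 101.6 CPM in sgRbpj+Biocontrol. With BioNICD1_WT it was 168.7, 149.2 and 148.5 CPM in control cells and 94.9, 94.5 and 80.0 CPM in sgRbpj cells. All 6 depleted libraries lay below all 6 control libraries. Ep300 fell by 0.84 with Biocontrol (SE 0.09, adjusted p 1.23e-05) and by 0.79 with BioNICD1_WT (SE 0.09, adjusted p 1.69e-05), to 56.0% and 57.8% of the control level. With Biocontrol 5 of the 7 genes were called, against 42.0% of all genes tested, and with BioNICD1_WT 4 of 7, against 39.8%, so in this experiment a call on depletion was common among all genes. BioNICD1_WT in control cells lowered Ep300 by 0.24 (SE 0.09, adjusted p 0.0476; 2 of the 7 genes called, 32.9% of all genes), and this passed in 5 of 12 fits that left out 1 library each. It was lost without any 1 of the 3 Control_sgRbpj+Biocontrol libraries, Control_sgRbpj+BioNICD1_WT replicate 2 or 3 and sgRbpj+Biocontrol replicate 1 or 2 (-0.26 to -0.21, adjusted p 0.0566 to 0.154). In sgRbpj cells the difference was -0.20 (SE 0.09, adjusted p 0.228), and none of the 7 genes was called there, against 4.14% of all genes.

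The fall of Ep300 was not seen in the edited lines of the depletion experiment. There it was 127.5 and 109.5 CPM in control, 164.8 and 112.0 CPM in line 2-12 and 157.7 and 107.5 CPM in line 2-14. The difference was 0.19 (95% interval -0.32 to 0.71, adjusted p 0.570), and the groups overlapped. In 1 fit of both experiments, a comparison chosen after the values were seen, the depletion effect in the lines minus that with Biocontrol was 0.95 for Ep300 (SE 0.23, 95% interval 0.46 to 1.44, adjusted p 0.0117). Of the 7 genes, 2 were called in that comparison, Ep300 and Kat2b, against 18.3% of the 12327 genes tested. The experiments differ in vector and in library, which cannot be told apart. They may also differ in the cells used, since the labels do not assign the sgRbpj cells with Biocontrol to line 2-12 or line 2-14. Ep300 was not called in the NICD1-ER, GSI or KYOT2 experiments, where its differences ran from -0.18 to 0.09; the KYOT2 one came from 66.0, 65.3 and 72.2 CPM with GFP-KYOT2_WT against 85.3, 73.4 and 73.0 CPM with GFP (adjusted p 0.346).

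Crebbp was 114.0 and 117.0 CPM in Control_sgRbpj, 174.5 and 148.8 CPM in line 2-12 and 145.2 and 131.7 CPM in line 2-14. All 4 depleted libraries were above both controls, and line 2-12 was above line 2-14. The difference was 0.37 (SE 0.11, adjusted p 0.0828), and with the replicate block it was 0.36 with an adjusted p of 0.0116. With the BioNICD1 vectors Crebbp was 103.4, 103.8 and 103.7 CPM in Control_sgRbpj+Biocontrol, 92.6, 75.5 and 79.0 CPM in Control_sgRbpj+BioNICD1_WT, 101.1, 117.2 and 116.7 CPM in sgRbpj+Biocontrol and 119.9, 111.9 and 84.4 CPM in sgRbpj+BioNICD1_WT. The group with BioNICD1_WT in control cells had the lowest mean, and it differed from Control_sgRbpj+Biocontrol by -0.33 (SE 0.13, adjusted p 0.0616). Without the 2 depleted libraries that stood apart that difference was -0.34, with an adjusted p of 0.00972, and with only the 2 groups compared the adjusted p was 0.00258. It also passed without sgRbpj+BioNICD1_WT replicate 1 or 3 (adjusted p 0.0289 and 0.0206) and without Control_sgRbpj+BioNICD1_WT replicate 1 (-0.42, adjusted p 0.0390). Depletion gave 0.11 with Biocontrol (SE 0.13, adjusted p 0.518) and a rise of 0.36 with BioNICD1_WT (SE 0.13, adjusted p 0.0400), although replicate 3 of sgRbpj+BioNICD1_WT lay within the control range. Without the 2 libraries that stood apart the last value was 0.26, with an adjusted p of 0.0661, and with only the compared groups the adjusted p was 0.101. The call was also lost without sgRbpj+BioNICD1_WT replicate 1 or 2, Control_sgRbpj+BioNICD1_WT replicate 2 or 3, or Control_sgRbpj+Biocontrol replicate 2 (0.26 to 0.36, adjusted p 0.0538 to 0.143). In NICD1-ER cells Crebbp was 143.7 and 158.8 CPM with ethanol and 169.4 and 192.2 CPM at 4 h, a rise of 0.24 (SE 0.07, adjusted p 0.0416). The call was kept in 6 of 14 alternatives. It was lost with DESeq2 (adjusted p 0.284), RLE factors (0.0503), each library as a sample (0.0557) and only the compared groups (0.0506), and without ethanol replicate 2 (0.17), 4 h replicate 3 (0.16) or 24 h 4-OHT replicate 2 or 3 (adjusted p 0.0707 to 0.274 over these 4 fits). At 8 h and 24 h it was 0.06 and 0.16 (adjusted p 0.663 and 0.169).

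The counts of Crebbp per count of Ep300 within a library were 0.563 ± 0.0106 (SD, n = 3) in Control_sgRbpj+Biocontrol, 0.529 ± 0.0217 in Control_sgRbpj+BioNICD1_WT, 1.08 ± 0.0916 in sgRbpj+Biocontrol and 1.17 ± 0.105 in sgRbpj+BioNICD1_WT. The depleted groups lay above the control groups with no overlap. In the depletion experiment the same ratio was 0.981 ± 0.123 (n = 2) in control, 1.19 ± 0.190 in line 2-12 and 1.07 ± 0.215 in line 2-14, and those ranges overlapped. A ratio of counts between genes is not corrected for gene length and is to be read only as a change between libraries.

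Of the KAT2 pair, Kat2b fell as Ep300 did on depletion in the BioNICD1 experiment, and Kat2a did not. Kat2b, which encodes PCAF, was 108.2, 107.2 and 113.1 CPM in Control_sgRbpj+Biocontrol, 121.6, 101.9 and 119.2 CPM in Control_sgRbpj+BioNICD1_WT, 55.9, 55.4 and 70.2 CPM in sgRbpj+Biocontrol and 74.6, 53.5 and 57.4 CPM in sgRbpj+BioNICD1_WT. All 6 depleted libraries lay below all 6 control libraries, and within each group of 3 depleted libraries the highest was the one that stood apart. Kat2b fell by 0.86 with Biocontrol (SE 0.13, adjusted p 2.6e-04) and by 0.89 with BioNICD1_WT (SE 0.13, adjusted p 2.07e-04), to 55.2% and 54.1% of control. In the edited lines Kat2b was 126.6 and 135.8 CPM in control, 142.7 and 131.3 CPM in line 2-12 and 130.5 and 130.2 CPM in line 2-14, a difference of 0.02 (95% interval -0.20 to 0.25, adjusted p 0.887). The depletion effect in the lines minus that with Biocontrol was 0.81 (SE 0.16, 95% interval 0.47 to 1.14, adjusted p 0.00374). BioNICD1_WT itself gave 0.06 in control cells and 0.03 in depleted cells, neither of them called.

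In NICD1-ER cells Kat2b was 154.8 and 161.1 CPM with ethanol, 153.5 and 155.3 CPM at 4 h, 152.7 and 160.5 CPM at 8 h and 174.7 and 185.7 CPM at 24 h. Both 24 h samples were above both ethanol samples, by 0.19 (SE 0.05, adjusted p 0.0295; 2 of the 7 genes called, Rbpj and Kat2b, against 10.8% of all genes tested). Kat2a, which encodes GCN5, was 134.7 and 130.9 CPM with ethanol, 144.3 and 141.2 CPM at 4 h, 151.8 and 149.5 CPM at 8 h and 119.3 and 124.8 CPM at 24 h. It was above ethanol at 8 h, by 0.19 (SE 0.05, adjusted p 0.0221; again 2 of 7 called, against 10.4% of all genes), and -0.12 at 24 h (SE 0.05, adjusted p 0.199). DESeq2 gave adjusted p 0.544 for the 8 h rise of Kat2a and 0.423 for the 24 h rise of Kat2b. The Kat2a call was lost without either 8 h sample, ethanol replicate 3 or 24 h 4-OHT replicate 2 (0.16 to 0.18, adjusted p 0.0575 to 0.203), and the Kat2b call without any 1 of the 2 ethanol and 2 24 h libraries (0.14 to 0.23, adjusted p 0.0531 to 0.306).

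**Figure D3:**
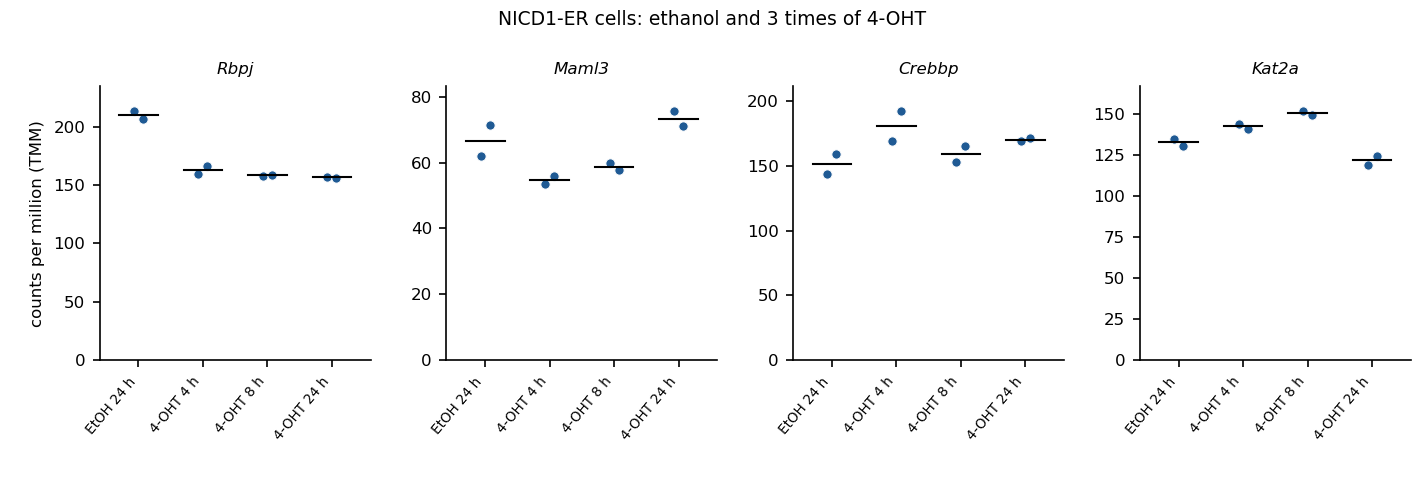
Level of Rbpj, Maml3, Crebbp and Kat2a in TMM-scaled CPM (vertical axes, from 0) in NICD1-ER cells with ethanol and after 4, 8 and 24 h of 4-OHT; points are samples, 1 of the points at 4 h and at 8 h being 2 summed libraries, and lines are means. Rbpj is lower at all 3 times, whereas Maml3 is lowest at 4 h, Crebbp highest at 4 h and Kat2a highest at 8 h.

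On depletion Kat2a was 69.7, 66.6 and 70.0 CPM in Control_sgRbpj+Biocontrol and 86.6, 92.4 and 77.8 CPM in sgRbpj+Biocontrol. The 3 depleted libraries were above the 3 controls, by 0.32 (SE 0.09, adjusted p 0.0128). Without Control_sgRbpj+Biocontrol replicate 2 the adjusted p was 0.0570, and without sgRbpj+Biocontrol replicate 2 it was 0.0567. With BioNICD1_WT it was 68.3, 78.6 and 72.0 CPM in control cells and 75.8, 85.1 and 81.0 CPM in depleted cells, where the groups overlapped (0.14, SE 0.09, adjusted p 0.215). In the depletion experiment Kat2a was 79.0 and 110.8 CPM in control, 106.8 and 129.1 CPM in line 2-12 and 116.7 and 131.4 CPM in line 2-14. The difference was 0.34 (SE 0.16, adjusted p 0.218) and the groups overlapped, while within replicate 1 and within replicate 2 both lines were above the control; with the replicate block the adjusted p was 0.0175. Kat2a and Kat2b were not called in the GSI or KYOT2 experiments, where Kat2a ran from 116.3 to 121.9 and from 40.0 to 45.9 CPM, and Kat2b from 143.5 to 156.6 and from 97.5 to 113.7 CPM.

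**Figure D4:**
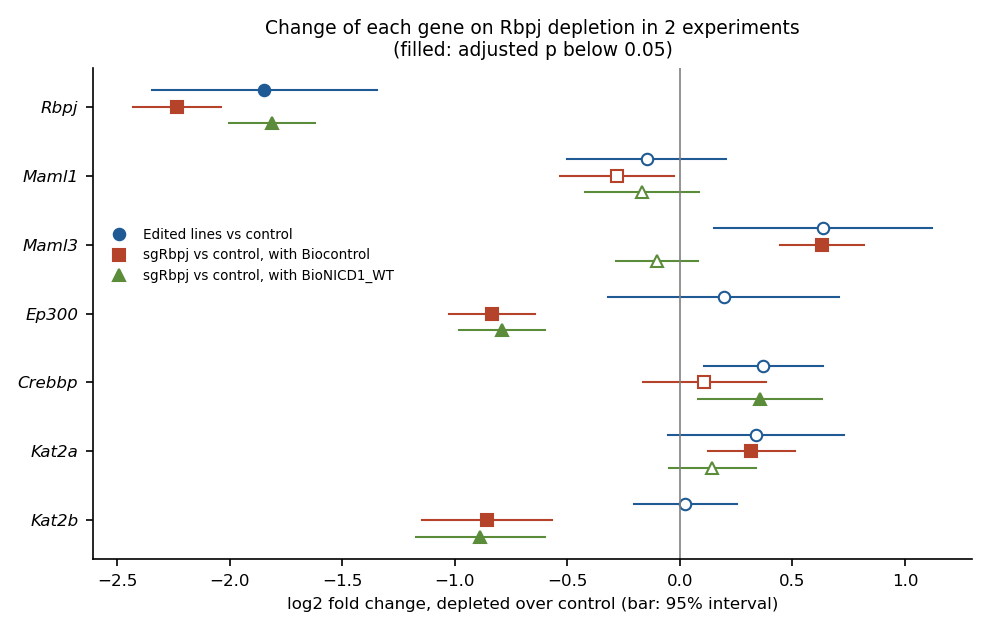
log2 fold change on Rbpj depletion (horizontal axis; points with 95% intervals, filled where adjusted p is below 0.05) for the 7 tested genes in the edited lines and in sgRbpj cells with Biocontrol or BioNICD1_WT. Rbpj lies near -2 in all 3 comparisons, Ep300 and Kat2b lie near -0.8 to -0.9 only in the BioNICD1 experiment, and Maml3 is near 0.6 except with BioNICD1_WT.

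**Figure D5:**
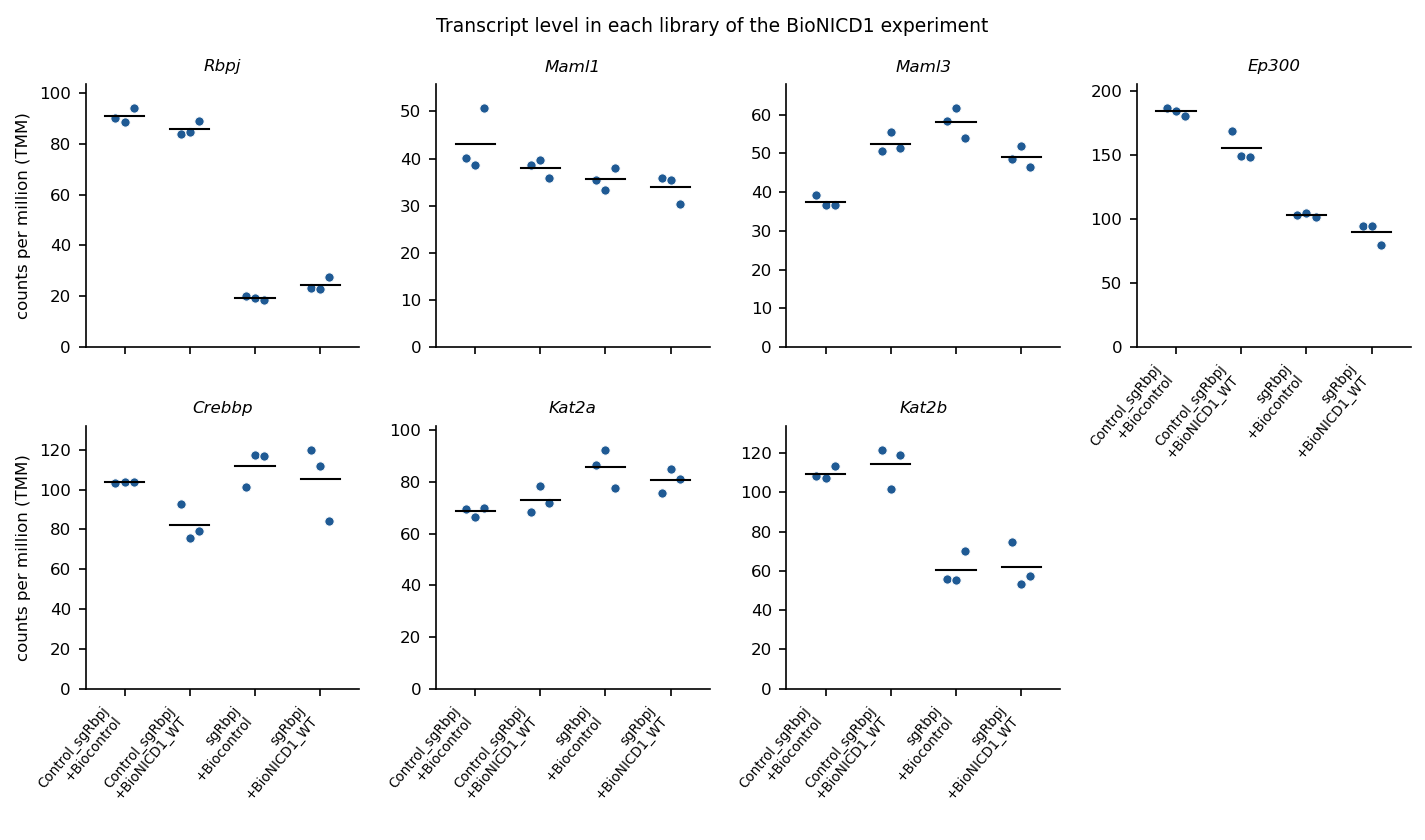
Level of the 7 tested genes in TMM-scaled CPM (vertical axes, from 0) in the 12 libraries of the BioNICD1 experiment; points are libraries and lines are group means of 3. Rbpj, Ep300 and Kat2b are lower in both sgRbpj groups, and Maml3 is lowest in Control_sgRbpj+Biocontrol.

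Summed markers of other cell types also differed between the groups. The summed level of 6 myeloid markers, of which Cd68 was the highest, was 29.5 to 33.3 CPM in Control_sgRbpj+Biocontrol and 9.03 to 14.5 CPM in sgRbpj+Biocontrol, and 42.5 to 58.9 CPM in Control_sgRbpj against 21.5 to 30.6 CPM in the 2 edited lines. It was 56.7 to 62.9 CPM with DMSO against 85.4 to 89.3 CPM with GSI, and 38.7 to 42.3 CPM with ethanol against 27.4 to 28.4 CPM at 4 h of 4-OHT, 26.7 to 31.5 CPM at 8 h and 39.9 to 41.0 CPM at 24 h. The myeloid marker Cd14 was at 0 in the depletion and NICD1-ER experiments. The summed T cell markers were 1145 to 1284 CPM in Control_sgRbpj+Biocontrol, 1655 to 1848 CPM in Control_sgRbpj+BioNICD1_WT and 942 to 1146 CPM in the sgRbpj groups. Of 6 B cell markers, Cd22 alone exceeded 1 CPM on average in any experiment. Their sum was 183 to 229 CPM in Control_sgRbpj+BioNICD1_WT and at most 0.493 CPM in the other 3 groups of that experiment, and it was 37.5 to 44.2 CPM with ethanol and 271 to 275 CPM after 24 h of 4-OHT. Of 3 erythroid markers, Hba-a1 was the highest, and their sum was 10.1 to 13.3 CPM in Control_sgRbpj and 0.737 to 3.67 CPM in the edited lines; the 4 fibroblast markers summed to at most 1.20 CPM. The part of these markers in the results was not tested.

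The other genes of the coactivator and corepressor machinery were counted from 4 lists. SAGA and ATAC subunits are the partners that carry Kat2a or Kat2b, and all 24 were tested. In the edited lines 6.21% of all genes rose and 3.68% fell, with Biocontrol 21.7% rose and 20.3% fell on depletion, and with BioNICD1_WT 18.5% rose and 21.4% fell. No subunit was called in the edited lines, where the median difference was 0.05, against -0.00 over all genes. With Biocontrol 5 rose and 3 fell on depletion, and with BioNICD1_WT 10 rose and none fell (medians 0.05 and 0.18, against 0.02 and -0.00 over all genes). Of 9 genes of the Mediator kinase module and of NICD turnover, which include the kinase that phosphorylates NICD and the ubiquitin ligase subunit that recognises it, 1 rose in the edited lines, 1 rose and 2 fell with Biocontrol, and 2 rose and 2 fell with BioNICD1_WT. Of 17 other acetyltransferases and p160 coactivators, the counts were 1 up in the lines, 2 up and 5 down with Biocontrol, and 2 up and 2 down with BioNICD1_WT.

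Of 18 tested RBPJ corepressor genes, 2 rose in the edited lines, 5 rose and 3 fell with Biocontrol, and 9 rose and 1 fell with BioNICD1_WT. Spen, which encodes the corepressor that RBPJ carries in the absence of NICD, was the only gene of the 4 lists called in the same direction in the edited lines and with Biocontrol, at 0.96 (SE 0.20, adjusted p 0.0303) and 0.60 (SE 0.13, adjusted p 0.00317). In the NICD1-ER experiment 6.25%, 10.4% and 10.8% of all genes were called at 4, 8 and 24 h. None of the 24 SAGA and ATAC subunits was called at 4 h or 8 h and 1 fell at 24 h. Of 9 Mediator and turnover genes 1 rose at 24 h and none was called earlier, and of 17 other acetyltransferases and p160 coactivators 1 fell at 4 h, 2 fell at 8 h and none was called at 24 h. Of 18 corepressors 1 rose and 2 fell at 4 h, 1 rose and 1 fell at 8 h, and 1 rose and 1 fell at 24 h. In the KYOT2 experiment none of the genes of the first 3 lists was called in any comparison. Of all genes tested there, 0.888% were called with the wild type over GFP, 0.0897% with the mutant over GFP and 1.87% between wild type and mutant. Of 19 corepressor genes tested there, 3 rose with the wild type over GFP and also over the mutant. The 3 were Fhl1, which encodes KYOT2 itself, L3mbtl3 (0.70 and 0.58, SE 0.09 each) and Spen (0.46 and 0.60, SE 0.07 each). These were named after their values were seen. With GSI, where 20.7% of all genes were called, 1 of 9 Mediator and turnover genes rose and 1 fell, 1 of 24 SAGA and ATAC subunits fell, 4 of 17 other acetyltransferases fell, and 1 of 18 corepressors rose and 3 fell. With BioNICD1_WT in control cells, where 32.9% of all genes were called, the counts up and down were 0 and 1, 1 and 3, 1 and 3, and 1 and 3 in the same order, and in depleted cells, where 4.14% were called, 0 and 0, 0 and 0, 2 and 1, and 1 and 0.

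Over the means of the 16 groups, centred within each experiment, the genes with the pattern most like that of Rbpj among 10409 genes tested throughout were Slc46a1 (Pearson r 0.986), Arrdc4 (0.981) and Clec2f (0.977). For Kat2b they were Arfgef1 (0.981), Lamp2 (0.980) and Ddx17 (0.973), for Ep300 Gm10863 (0.963), Avl9 (0.961) and Zxdb (0.960), and for Maml3 Pisd-ps1 (0.955), Pisd-ps3 (0.955) and Xdh (0.939). For Maml1 they were Ypel5 (0.950), Ezh1 (0.943) and Gpatch2l (0.925), for Crebbp Smarcd3 (0.917), Nt5e (0.913) and Fam58b (0.911), and for Kat2a Pprc1 (0.946), 1700030K09Rik (0.940) and Urb1 (0.934). Among the 7 genes themselves the highest value was that of Ep300 with Kat2b (0.926), and the lowest that of Maml1 with Kat2a (-0.838). These values are a description with no test, and groups of 1 experiment share the mean they were centred on.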

How the data were processed

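The deposited table holds whole-number read counts per gene symbol, with a different total in each library; the authors' counting tool and annotation are not given in the sources used here. The submitters' processing notes name mm9, TopHat2 2.1.1, Picard and deepTools without roles. Of 65 columns 41 were matched to labelled samples and 24 were not used, of which 2 share a heading that fits the ethanol replicate 1 of NICD1-ER; replicate 1 of the ethanol and of the 24 h 4-OHT group is therefore not used. Region lists were not used. The library kit was stranded "or others", per the labels' protocols.

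Fits were made per experiment with edgeR 4.0.16 under R 4.3.3, after filterByExpr and TMM scaling, with 1 mean per group and a prior count of 0.125. Quasi-likelihood F-tests were two-sided, with Benjamini-Hochberg adjustment at 0.05. Alternatives were RLE factors, no low-count filter, DESeq2 1.42.0, the replicate block, Rn45s left out, each NICD1-ER library as a sample, only the compared groups, and leaving out each replicate. Added after seeing the data were the fit of both depletion experiments and the one without the 2 BioNICD1 libraries that stood apart. The fits were tested on simulated data. In the depletion experiment same-numbered libraries deviated together (correlations 0.508 to 0.739, 6 of 6 closest to their own number), so the replicate block is given for it as an alternative. With 2 libraries per group, unlike numbers give the same correlations with the sign reversed. The score of 6 of 6 therefore adds nothing, and GSI scored 4 of 4 at a correlation of 0.0269. In the depletion experiment replicate 2 was deeper than replicate 1 in all 3 groups, so pairing and depth cannot be told apart. Depth ran from 2377028 to 5998832 counts there, 4325641 to 5395008 (NICD1-ER), 9401514 to 14244209 (KYOT2), 4992690 to 6327603 (GSI) and 8113019 to 10113741 (BioNICD1). Promoter windows are RefSeq's (GRCm38.p6).

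The 8 genes, the 4 lists and the markers were chosen with earlier results of these data known. Named besides the 8 genes are those of a list called in 1 direction on depletion both in the lines and with Biocontrol. For each of the 8 genes, the 3 with the highest correlation over group means are also named. Notch1, Dtx1, Hes1, Hey1, Il2ra, Fhl1, Cd68, Cd22, Cd14, Hba-a1, Ms4a1, Rbpjl, Phxr4 and L3mbtl3 are named besides. Some of these were named after their values were seen.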

Additional observations from a re-analysis of the deposited data

Results flagged for a closer look

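The effect of BioNICD1_WT differed between sgRbpj and Control_sgRbpj cells for 2 of the 7 tested genes, by the interaction term of the fit: by 0.42 for Rbpj (adjusted p 0.0295) and by -0.73 for Maml3 (adjusted p 0.00107). For Maml3 the 3 control libraries with BioNICD1_WT were all above those with Biocontrol, and the 3 depleted libraries with BioNICD1_WT were all below theirs. Counts assigned to Notch1, whose sequence BioNICD1 shares, also differed between the groups that carry the construct, and the part of this was not tested.

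The effect of depletion differed between the edited lines and sgRbpj cells with Biocontrol for 2 of the 7 genes, by a test of the difference in 1 fit of both experiments: by 0.95 for Ep300 (adjusted p 0.0117) and by 0.81 for Kat2b (adjusted p 0.00374). That fit was chosen after the values were seen. No group has more than 3 samples, too few for a test of single outlying samples.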

How the results depend on the processing

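Of the 98 values of the 7 tested genes, 25 were called; 14 of these were called in every alternative run and 11 were lost in at least 1, and none of the 25 changed sign. Of the 73 values not called, 7 were called in at least 1 alternative. For every change given here the cause was not tested, except that leaving out samples or genes changes how many are fitted. Leaving 1 library out of the GSI, depletion or NICD1-ER experiments leaves 1 sample in an arm, which is then assumed to vary like the other groups.

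The number of the 7 genes called moved by more than 1.5 times as follows, with the full range where single libraries were left out. In the edited lines it went from 1 to 2 with no filter on low counts, to 4 with the replicate block and to 1 to 2 without single libraries. With DESeq2 it was 1 at 4 h, 8 h and 24 h of 4-OHT (from 3, 2 and 2), 0 with GSI (from 2) and 1 for BioNICD1_WT in depleted cells (from 0). With only the compared groups fitted it was 1 at 8 h and 0 for wild-type against mutant KYOT2. With no filter it was 1 with GSI, 1 for BioNICD1_WT in control cells and 1 for its difference between depleted and control cells. Without single libraries it was 1 to 2 at 8 h and at 24 h, 0 to 1 for wild-type against mutant KYOT2, 1 with GSI, 1 to 3 for BioNICD1_WT in control cells, 0 to 1 in depleted cells and 1 to 2 for the difference. Smaller moves were from 3 to 2 at 4 h with RLE factors, each library as a sample, only the compared groups or single libraries left out, from 2 to 3 at 24 h with the block, and from 2 to 3 for BioNICD1_WT in control cells with only the compared groups or without the 2 libraries that stood apart. On depletion with Biocontrol 5 became 6 without those 2 libraries and 4 without sgRbpj+Biocontrol replicate 2, and on depletion with BioNICD1_WT 4 became 3 without those 2 libraries, with only the compared groups and without any 1 of 5 libraries.

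Over all genes, counts that moved by more than 1.5 times were these. In the edited lines 1144 became 4260 with the replicate block and 2671 with no filter, and between the lines 56 became 282, 302 and, with DESeq2, 109. With DESeq2 the 4-OHT counts were 210, 408 and 591 (from 738, 1225 and 1276), and the GSI count 605 (from 2414); the 4 h count with the block was 1223. For wild-type KYOT2 over GFP 99 became 262 with no filter, 320 with the block and 161 with only the compared groups; for the mutant 10 became 66, 67 and 6 in that order and 22 with DESeq2; for wild type against mutant 208 became 395, 567 and 112. For BioNICD1_WT in depleted cells 469 became 4 with only the compared groups, 758 with DESeq2 and 1285 without the 2 libraries that stood apart. In control cells 3723 became 5847 with only the compared groups and 5882 without those libraries, and the difference between them 2548 became 4665.

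Values that were not called changed sign without single libraries over these ranges. On depletion Kat2b ran from -0.023 to 0.075. Between lines Maml1 ran from -0.183 to 0.147, Ep300 from -0.239 to 0.358 and Kat2a from -0.219 to 0.056.
At 4 h Ep300 ran from -0.0428 to 0.0836, and at 8 h Crebbp from -0.00761 to 0.136 and Kat2b from -0.0637 to 0.0125. For wild-type KYOT2 over GFP Maml1 ran from -0.0828 to 0.0319 and Kat2a from -0.0203 to 0.0337, for the mutant over GFP Maml3 from -0.0905 to 0.0736, Crebbp from -0.169 to 0.0139 and Kat2b from -0.0536 to 0.0591, and for wild type against mutant Maml1 from -0.00302 to 0.114 and Ep300 from -0.108 to 0.0307. With GSI Maml1 ran from -0.0314 to 0.0712, Ep300 from -0.0684 to 0.0106, Crebbp from -0.0260 to 0.158 and Kat2a from -0.0531 to 0.00742. For BioNICD1_WT in depleted cells Maml1 ran from -0.112 to 0.00692, Crebbp from -0.182 to 0.0535 and Kat2b from -0.122 to 0.142, and for its difference between depleted and control cells Maml1 ran from -0.0238 to 0.197 and Kat2b from -0.176 to 0.0849. Without the 2 libraries that stood apart Kat2b was -0.00721 in depleted cells and the Ep300 difference was -4.39e-04.

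The replicate block changed no other call of the 7 genes than those given for the edited lines and for Crebbp at 24 h (0.17, adjusted p 0.0112, each library as a sample). Elsewhere correlations of same-numbered samples were above 0.1 in 7 of 9 KYOT2 pairs (8 of 9 closest to their own number) and 6 of 13 NICD1-ER pairs. They were above 0.1 in 9 of 18 BioNICD1 pairs (7 of 12 closest), and 0.0269 in GSI (4 of 4 closest). Replicate numbers were not taken to pair samples in these experiments. Maml2 was under the filter in every experiment, with at most 2 counts per library in the deepest one, KYOT2.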
